A study of Mus musculus with 6 samples.

Results

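Mitochondrial ribosomal protein genes were examined in the triple negative mouse breast cancer line 4T1 after 24 h of culture with macrophages grown from mouse bone marrow. The macrophages were of 1 of 2 kinds, polarised beforehand to be pro-inflammatory (PI) or to be anti-inflammatory (AI). The sources used here do not give the polarising agents or the strain and age of the mice. The labels' protocols state that CD11b microbeads on a depletion column took the macrophages out, so total RNA came from the remaining tumour fraction. There were 3 PI and 3 AI arrays. Each replicate used macrophages from a different mouse, while the tumour cells were a single line throughout, and 4T1 cells grown alone were not analysed here. Members were the genes of the deposited table whose only symbol was Mrpl or Mrps followed by a number and at most 1 letter, with the transcript cluster (a probe set that summarises a gene) of highest mean taken for each gene. This gave 68 of 23385 genes tested, 40 named for the large subunit (Mrpl) and 28 for the small subunit (Mrps). The rule used symbols and mean levels, not the difference between PI and AI. It was chosen with earlier results of these data known.

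The mitochondrial ribosome translates the few messenger RNAs encoded by mitochondrial DNA, all of which specify subunits of the respiratory chain and of ATP synthase. Its RNAs come from mitochondrial DNA, whereas its proteins are all encoded in the nucleus, made in the cytosol and imported. Some descend from proteins of the bacterial ribosome and others have no bacterial counterpart. The large subunit forms peptide bonds and the small subunit decodes the messenger RNA.

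Most of these genes read slightly lower after PI than after AI co-culture, in both subunits, and none passed the test. All values are expression levels on the log2 scale from RMA, and differences are PI minus AI. Of the 68 members, 60 had a negative difference (88.2%), against 52.7% of all genes tested. The median difference was -0.08, a ratio of PI over AI of 0.944, beside a median of -0.01 over all genes. Single differences ran from -0.35 for Mrps36 to 0.14 for Mrpl47. The product of Mrps36 is now placed outside the ribosome, and the clusters of Mrpl47 differed in sign, as described below. With limma and Benjamini-Hochberg adjustment over all genes, 0 members were higher and 0 lower at an adjusted p of 0.05, where 0.0727% of all genes were higher and 0% lower. The smallest adjusted p of a member was 0.504. At an unadjusted p under 0.05, limma had 5 members lower (7.35%; background 3.31%) and 0 higher (background 4.05%). An unmoderated test also passed 0 members after adjustment and had 10 lower at an unadjusted p under 0.05 (background 3.77%). The median 95% interval of a member's difference reached 0.20 to either side, wider than the difference of most members.

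The 3 PI arrays all lay below the 3 AI arrays for 19 members (27.9%), against 7.32% of all genes, and 0 members had the reverse, against 5.85%. When all genes were divided by mean level into 4 groups of equal size, 59 of the 68 members fell in the highest group, where the median difference of all genes was -0.04, 67.3% were negative and 13.6% had all PI arrays below all AI arrays. For those 59 members the median was -0.08, with 89.8% negative and 27.1% with PI below AI. The size of the shift also depended on the scaling of the arrays. The members' median was -0.05 after quantile normalisation and -0.05 after cyclic loess, with 50 and 46 of 68 negative (51.5% and 50.1% of all genes). After centring each array on its median it was -0.13, with 63 negative (65.5% of all genes). The median of all genes in the highest level group moved too, to -0.01, 0.00 and -0.08 in the same order. With each array left out in turn, 52 to 62 members were negative. After cyclic loess, 13 members still had PI below AI (background 6%).

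**Figure D1:**
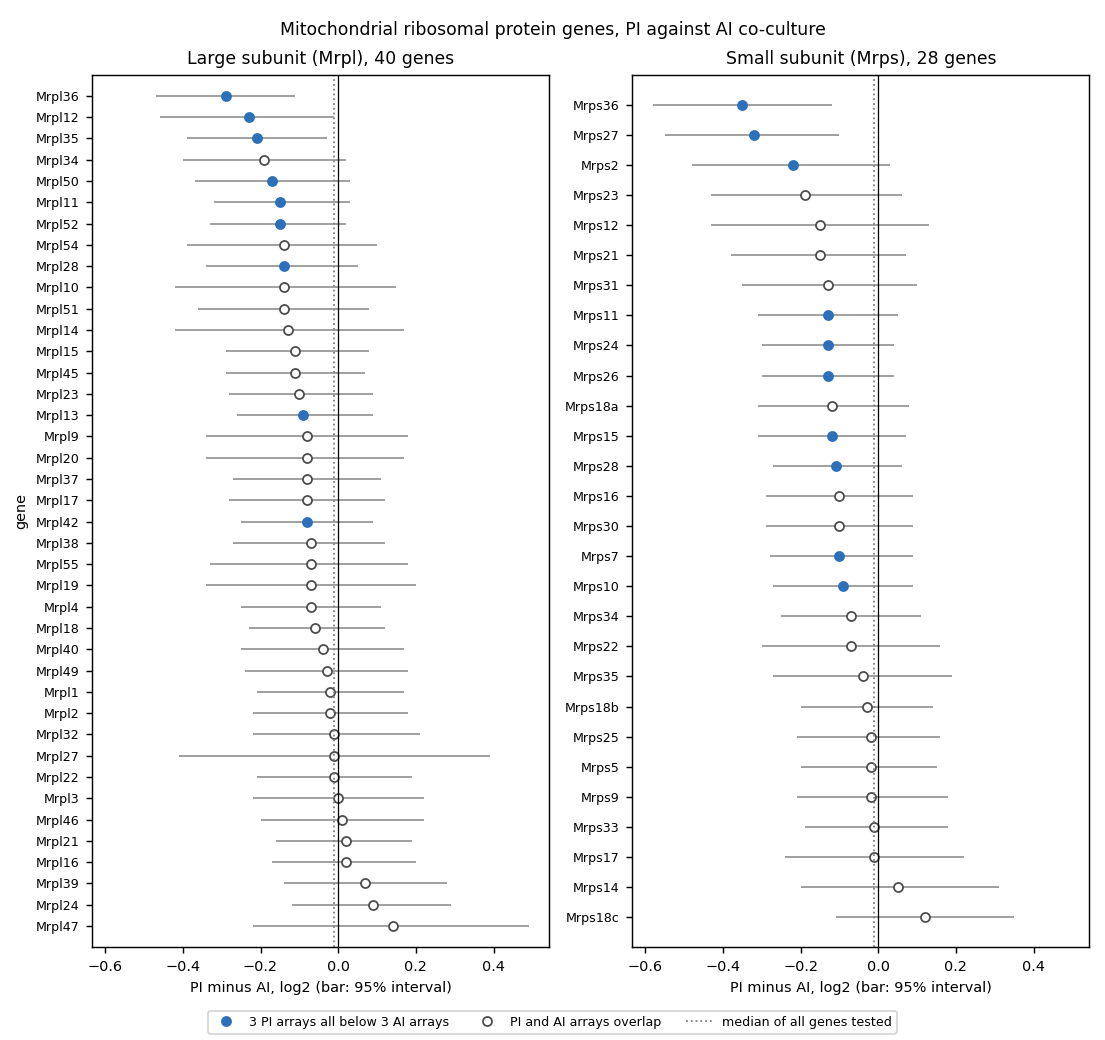
The difference between PI and AI co-culture (x axis, log2) for each of the 68 genes (y axis), with 95% intervals from limma; filled points mark the 19 genes whose 3 PI arrays all lay below the 3 AI arrays, and the dotted line is the median of all genes, -0.01. Of the 68 points, 60 lie below 0.

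**Figure D2:**
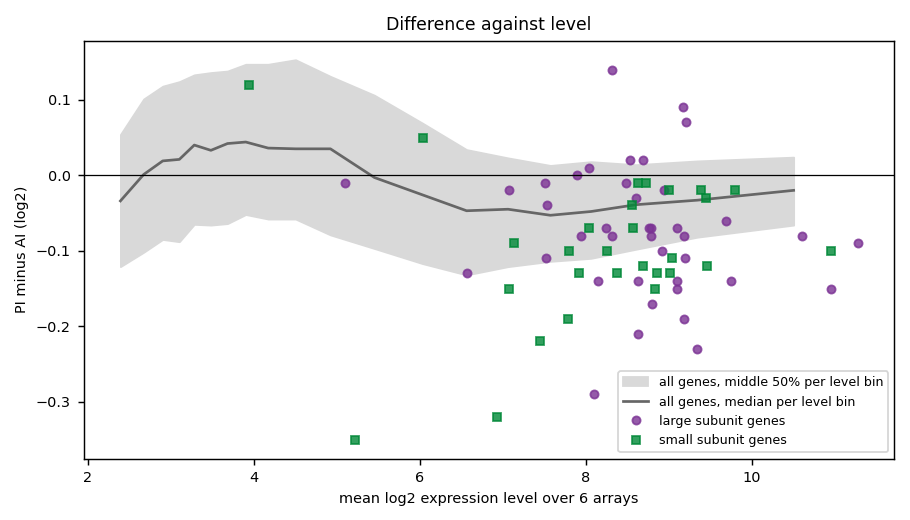
PI minus AI difference (y axis, log2) against mean log2 level over the 6 arrays (x axis) for large subunit genes (circles) and small subunit genes (squares), over the median and middle 50% of all genes in 20 level bins of equal gene number. Most members lie at levels between 7.5 and 9.5 and more of them lie below the grey line than above it.

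Large and small subunit genes differed little from each other. The median difference was -0.08 over the 40 large subunit genes, with 34 negative, and -0.10 over the 28 small subunit genes, with 26 negative. The large minus small gap in medians was therefore 0.02. For single arrays, the gap was taken between medians of each value minus its gene's own mean over all arrays. It was 0.048, 0.005 and 0.021 on the PI arrays and -0.025, -0.007 and 0.028 on the AI arrays, which overlapped. Its SD within groups was 0.0243, a spread of single arrays that cannot be set directly against the 0.02 between groups. All 3 PI arrays lay below all 3 AI arrays for 9 large subunit genes (22.5%) and 10 small subunit genes (35.7%). The share was 7.32% over all genes and 13.6% in the highest level group. Without AI replicate 3 the large subunit median was -0.04 and the gap 0.06, and in the other sets of 5 arrays the gap was 0.01 to 0.03. Mrps18a and Mrps30 carry small subunit names although structures of the mammalian mitoribosome place their proteins in the large subunit. Placing them there and leaving out Mrps36 left the medians at -0.08 and -0.10. Of the 67 members then left, 59 were negative (52.7% of all genes) and 18 had PI below AI on all arrays (7.32%). At an unadjusted limma p under 0.05, 4 of them were lower in PI (3.31% of all genes).

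Array by array, each member's value was set against its own mean over the 6 arrays and the median taken. For the large subunit these medians were -0.031, -0.028 and -0.036 on the PI arrays and -0.001, 0.060 and 0.068 on the AI arrays. For the small subunit they were -0.079, -0.033 and -0.057 on the PI arrays and 0.024, 0.066 and 0.041 on the AI arrays. In both subunits every PI array was below every AI array, and AI replicate 1 was the lowest of the AI arrays. Over all genes of the highest level group the medians were -0.036, 0.005 and -0.020 on the PI arrays and 0.018, 0.020 and 0.013 on the AI arrays, so PI and AI separated there too. The lowest AI array lay 0.008 above the highest PI array in that group.

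**Figure D3:**
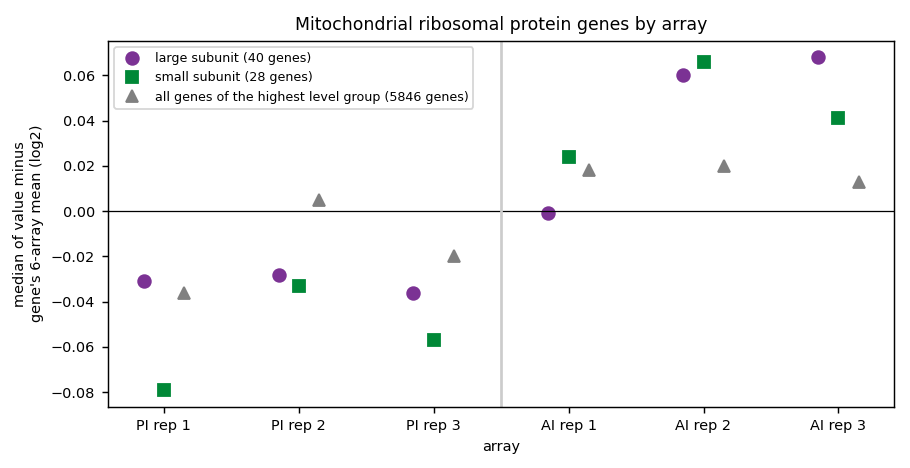
Median over genes of the value minus the gene's own 6-array mean (y axis, log2) on each array (x axis), for 40 large subunit genes, 28 small subunit genes and the 5846 genes of the highest of 4 level groups. The 3 PI arrays lie below the 3 AI arrays for both subunits, from -0.079 to -0.028 against -0.001 to 0.068.

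Sequence shared by the promoters was described for 59 of the 68 members, those found in the RefSeq promoter table (GRCm38.p6), from 250 bases before to 50 after the annotated start. On both strands, 3 motifs of factors known for nuclear genes of mitochondrial proteins were searched: CGCNTGCGC for NRF1, CCGGAAG for ETS factors such as GABPA, and AAGATGGCG for YY1. The NRF1 letters occurred in 13 of 59 members (22%), against 7.03% of 27025 genes and 9.63% of 17492 protein-coding genes. ETS letters occurred in 20 members (33.9%), against 9.93% of all genes and 12.9% of protein-coding genes. YY1 letters occurred in 8 members (13.6%), against 1.64% and 2.14%. Matches of different motifs overlapped in 0 members, while the NRF1 letters can match both strands at nearly the same place, so each gene was counted a single time. The median difference was -0.08 with the NRF1 letters and -0.09 without, -0.09 with the ETS letters and -0.08 without, and -0.13 with the YY1 letters and -0.08 without. A match is a description of letters, and binding was not measured.

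For each motif, the member of smallest p that held it before its start is printed, 5′ to 3′, for the 250 bases before the start. Mrpl12 holds the NRF1 letters on the gene's strand, starting 80 bases before the start. Mrps27 holds the ETS letters on the opposite strand at 48 bases, and Mrpl36 holds the YY1 letters on the opposite strand at 31 bases. Capitals mark the motif and lower case the rest.
Mrpl12, chr11:120484387-120484636, + strand: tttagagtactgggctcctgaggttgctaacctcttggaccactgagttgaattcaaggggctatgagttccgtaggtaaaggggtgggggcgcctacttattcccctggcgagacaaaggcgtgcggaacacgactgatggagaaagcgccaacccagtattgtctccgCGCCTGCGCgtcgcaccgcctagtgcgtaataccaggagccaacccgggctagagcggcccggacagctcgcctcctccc
Mrps27, chr13:99344536-99344785, + strand: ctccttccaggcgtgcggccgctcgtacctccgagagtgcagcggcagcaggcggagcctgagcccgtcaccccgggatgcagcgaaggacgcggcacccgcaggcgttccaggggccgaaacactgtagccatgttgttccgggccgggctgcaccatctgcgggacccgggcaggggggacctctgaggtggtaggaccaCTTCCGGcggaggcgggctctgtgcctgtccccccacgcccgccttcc
Mrpl36, chr13:73330759-73331008, + strand: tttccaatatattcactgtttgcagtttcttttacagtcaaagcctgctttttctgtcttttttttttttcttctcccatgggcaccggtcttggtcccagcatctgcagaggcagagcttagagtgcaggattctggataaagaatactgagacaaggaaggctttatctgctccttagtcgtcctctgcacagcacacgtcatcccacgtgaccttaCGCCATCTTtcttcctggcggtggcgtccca

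Among large subunit genes with a bacterial counterpart, Mrpl36 had the smallest p of all members. It encodes the counterpart of the small bacterial large-subunit protein of the same number (transcript cluster 17294244, Entrez 94066). The PI arrays read 7.91, 7.95 and 7.98 and the AI arrays 8.18, 8.21 and 8.31. PI and AI did not overlap, and the difference was -0.29 (95% interval -0.47 to -0.11; limma adjusted p = 0.504). A second cluster annotated to Mrpl36 read 7.23, 7.46 and 7.28 in PI and 7.48, 7.63 and 7.48 in AI, also without overlap, with a difference of -0.20. Mrpl36 was thus lower in PI by both of its probe sets, without passing the test.

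Mrpl12 encodes the stalk protein that helps recruit translation factors to the large subunit, and in human cells it is also known to bind the mitochondrial RNA polymerase. Its PI arrays read 9.20, 9.24 and 9.22 and its AI arrays 9.28, 9.50 and 9.57. The groups did not overlap although AI replicate 1 lay close to PI, and the difference was -0.23 (95% interval -0.46 to -0.01; limma adjusted p = 0.662). Its second cluster did not share this, with PI at 7.81, 7.84 and 7.91, AI at 7.87, 7.89 and 7.85 and a difference of -0.01. Mrpl10, which anchors the stalk proteins to the subunit, read 9.11, 9.07 and 8.90 in PI and 9.00, 9.09 and 9.40 in AI. These overlapped, with AI replicate 3 above the other arrays and a difference of -0.14, or -0.02 without AI replicate 3. The second Mrpl10 cluster had a difference of -0.02.

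Mrpl35, also the counterpart of a bacterial protein, read 8.45, 8.57 and 8.55 in PI and 8.74, 8.76 and 8.68 in AI. PI lay below AI on all arrays, by -0.21 (95% interval -0.39 to -0.03; limma adjusted p = 0.655). Mrpl34, another counterpart, read 9.05, 9.00 and 9.20 in PI and 9.19, 9.29 and 9.36 in AI, where PI replicate 3 met AI replicate 1. Mrpl34 had a difference of -0.19. Mrpl27, a counterpart whose bacterial relative lies near the site of peptide bond formation, had the most variable values of any member. Its arrays read 5.17, 4.94 and 5.18 in PI and 4.98, 4.85 and 5.50 in AI, with the groups overlapping and a difference of -0.01. Without AI replicate 3 the difference was 0.18.

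Of the large subunit proteins with no bacterial counterpart, Mrpl52 had the smallest p. PI arrays read 10.86, 10.88 and 10.90 and AI arrays 10.98, 11.04 and 11.07. The groups did not overlap and lay 0.02 and 0.05 (SD, n = 3 each) around their means, with a difference of -0.15 (limma adjusted p = 0.704). Mrpl45, whose protein sits at the exit of the nascent chain and holds the ribosome to the inner membrane, read 7.49, 7.46 and 7.45 in PI and 7.64, 7.61 and 7.48 in AI. Its groups overlapped at AI replicate 3, with a difference of -0.11. Over the 28 large subunit genes with a bacterial counterpart the median difference was -0.07, and over the 12 without one -0.08.

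A few large subunit genes read higher in PI, none past the test and none without overlap. Mrpl24 read 9.20, 9.12 and 9.32 in PI and 9.20, 9.10 and 9.09 in AI, a difference of 0.09, or 0.03 without PI replicate 3. Mrpl39 read 9.19, 9.34 and 9.19 in PI and 9.20, 9.24 and 9.06 in AI, a difference of 0.07, or 0.02 without AI replicate 3. In both genes the groups overlapped. Mrpl47 had the highest difference of all members, 0.14 (95% interval -0.22 to 0.49), and it rested on PI replicate 2. Its PI arrays read 8.31, 8.71 and 8.12 and its AI arrays 8.35, 8.27 and 8.11. The other Mrpl47 cluster, of lower signal, went the opposite way, with PI at 6.70, 6.83 and 6.78, AI at 6.90, 6.92 and 6.96 and a difference of -0.16. The average of both clusters gave -0.01, so no direction is given for Mrpl47.

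**Figure D4:**
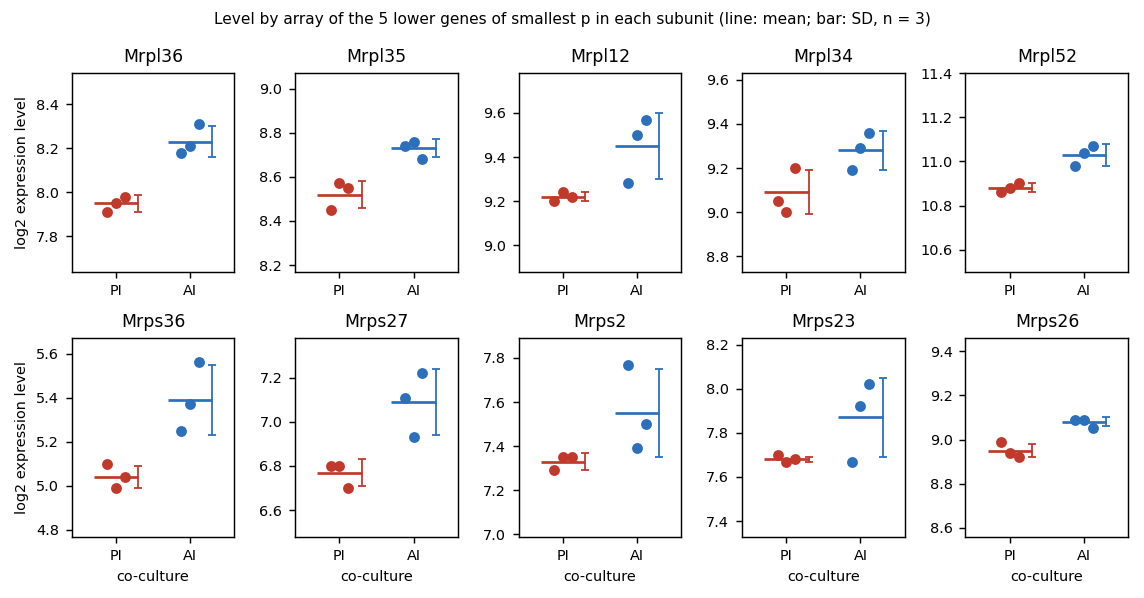
Log2 expression level (y axis) on the PI and AI arrays (x axis) of the 5 genes lower in PI with the smallest p in each subunit; points are arrays, lines are means, bars are SD (n = 3), and every panel spans the same range around its gene's mean. In 8 of the 10 panels the 3 PI points lie below the 3 AI points, the exceptions being Mrpl34 and Mrps23.

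In the small subunit, the most negative difference belonged to Mrps36, whose product is now known as a component of the 2-oxoglutarate dehydrogenase complex rather than of the ribosome (cluster 17295735). PI arrays read 5.10, 4.99 and 5.04 and AI arrays 5.25, 5.37 and 5.56, without overlap. The difference was -0.35 (95% interval -0.58 to -0.12; limma adjusted p = 0.558). Mrps27, which encodes a pentatricopeptide repeat protein specific to the mitochondrial subunit (cluster 17289439), read 6.80, 6.80 and 6.70 in PI and 7.11, 6.93 and 7.22 in AI. The groups were again separate, with a difference of -0.32 (95% interval -0.55 to -0.10; limma adjusted p = 0.576). A further cluster annotated to Mrps27 and to another gene had a difference of 0.01 at low signal.

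Mrps2, a counterpart of a bacterial small subunit protein, read 7.29, 7.35 and 7.35 in PI and 7.77, 7.39 and 7.50 in AI. PI lay below AI, narrowly for AI replicate 2, and the difference was -0.22, or -0.11 without AI replicate 1. Mrps23, with no bacterial counterpart, read 7.70, 7.67 and 7.68 in PI and 7.67, 7.92 and 8.02 in AI, where AI replicate 1 was at the PI level (difference -0.19; -0.11 without AI replicate 3). Mrps26, also specific to mitochondria, read 8.99, 8.94 and 8.92 in PI and 9.09, 9.09 and 9.05 in AI (difference -0.13). Its groups did not overlap, and only Mrps28 varied less within groups. For Mrps28 the PI arrays read 8.98, 8.97 and 8.96 and the AI arrays 9.05, 9.12 and 9.07, a separation of -0.11 (limma adjusted p = 0.787). Mrps12, part of the decoding centre, read 6.76, 7.05 and 7.19 in PI and 7.11, 7.12 and 7.22 in AI, which overlapped (difference -0.15; -0.03 without PI replicate 1).

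Mrps18a, Mrps18b and Mrps18c are related to a single bacterial small subunit protein. Mrps18c holds its place in the small subunit and was counted as its counterpart, Mrps18b lies elsewhere in the small subunit, and Mrps18a lies in the large subunit. Mrps18a read 8.58, 8.63 and 8.68 in PI and 8.64, 8.76 and 8.84 in AI (difference -0.12; -0.07 to -0.17 without 1 array). Mrps18b read 9.37, 9.46 and 9.45 in PI and 9.48, 9.46 and 9.43 in AI (difference -0.03; 0.00 without PI replicate 1). Its second cluster read 8.05, 7.94 and 8.20 in PI and 8.29, 8.26 and 8.30 in AI, a difference of -0.22 without overlap. The cluster of Mrps18c alone had a low signal, at percentile 38.3 of all genes, and read 3.93, 3.90 and 4.17 in PI and 3.85, 3.85 and 3.94 in AI (difference 0.12; 0.03 without PI replicate 3). A cluster annotated to Mrps18c and Gm19270 read 7.68, 7.87 and 7.68 in PI and 7.68, 7.70 and 7.41 in AI (difference 0.15). None of the 3 genes passed, and the intervals of their differences overlapped (-0.31 to 0.08, -0.20 to 0.14 and -0.11 to 0.35). Mrps30 read 7.75, 7.82 and 7.65 in PI and 7.86, 7.80 and 7.86 in AI (difference -0.10; -0.05 without PI replicate 3). The only other small subunit gene with a positive difference was Mrps14, at 6.10, 5.94 and 6.15 in PI and 6.15, 5.83 and 6.05 in AI (difference 0.05; -0.04 without AI replicate 2).

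The members not given array by array had differences between -0.17 and 0.02. Those whose PI arrays all lay below the AI arrays were, outside the genes above and named here after their values were seen, Mrpl50 (-0.17), Mrpl11 (-0.15), Mrpl28 (-0.14), Mrpl13 (-0.09) and Mrpl42 (-0.08) in the large subunit. In the small subunit they were Mrps11 and Mrps24 (-0.13 each), Mrps15 (-0.12), Mrps7 (-0.10) and Mrps10 (-0.09). Among small subunit genes with a bacterial counterpart 7 of 15 had PI below AI (46.7%), and among those without one 3 of 13 (23.1%), Mrps36 included. The share was 7.32% over all genes and 13.6% in the highest level group. The median difference was -0.10 in either class. Besides the members, 8 further Mrp symbols stood only on 10 clusters shared with another gene. Of these 10 clusters, 9 had negative differences, against 52.7% of all genes tested, with a median of -0.13. They ran from -0.23 for the cluster of Mrpl43 and Peo1 to 0.17 for that of Gm6238 and Mrpl30. All PI arrays lay below all AI arrays for 2 clusters (7.32% of all genes). They lay above for 1, that of Gm6238 and Mrpl30 (5.85% of all genes). The signal of these clusters cannot be assigned to 1 gene.

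In the authors' deposited table, 10 members had a p-value under 0.05, all of them higher in AI, where 3.77% of all genes tested and 3.27% of all clusters were so called, and 0 had a q-value under 0.05. The unmoderated test above gave the same counts on the same arrays, 10 members and 882 of 23385 genes. The authors' 10 are therefore not separate evidence. The smallest q-value of a member in the authors' deposited table was 0.58, for Mrpl36, whose AI level was given as 1.22 times its PI level. Next by p-value in the authors' deposited table came Mrps26, at 1.09 times, and Mrpl52, at 1.11 times.

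Genes that build and serve the mitochondrial ribosome also had mostly negative differences, and 0 of them passed in either direction. Over all genes 52.7% were negative, with 56% in the second highest of the 4 level groups and 67.3% in the highest. The median levels of these lists and of those in the next paragraph, 6.77 to 7.99, fell in those groups. Of 26 measured assembly and ribosomal RNA factors, 23 were negative (88.5%) with a median difference of -0.07, and 8 had PI below AI on all arrays (30.8%; background 7.32%). Tfb1m, which methylates the small subunit RNA, read 6.74, 6.65 and 6.46 in PI and 6.87, 7.05 and 6.89 in AI, without overlap (difference -0.32; limma adjusted p = 0.584). Mettl17, a small subunit assembly factor, read 7.01, 6.82 and 6.90 in PI and 7.12, 7.17 and 7.15 in AI, also without overlap (difference -0.24). Of 14 mitochondrial translation factors, 11 were negative (78.6%) with a median of -0.07, and 2 had PI below AI on all arrays (14.3%; background 7.32%). Tufm, the elongation factor that brings aminoacyl-tRNA to the ribosome, read 8.97, 9.01 and 8.95 in PI and 9.38, 9.32 and 9.07 in AI (difference -0.28; limma adjusted p = 0.627). Gfm1, the elongation factor that moves the ribosome along the messenger RNA, had a difference of -0.19. All PI arrays lay below all AI arrays for Tufm and not for Gfm1.

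Of 17 mitochondrial aminoacyl-tRNA synthetases, which charge mitochondrial tRNAs, 14 were negative (82.4%). Their median was -0.12, the lowest of these lists, and 1 had PI below AI on all arrays (5.88%; background 7.32%). That was Rars2, the arginine enzyme, at -0.21, while Cars2, the cysteine enzyme, had -0.23 with overlapping arrays. For 13 genes of mitochondrial DNA transcription and maintenance, 10 were negative (76.9%) with a median of -0.07, and 1 had PI below AI on all arrays (7.69%). The helicase Twnk had -0.27 and the DNA polymerase Polg -0.20. Of 6 ribosomal proteins with other names, 5 were negative with a median of -0.04, Mrpl57 (listed as Mrp63) at -0.16 and Mrpl58 (listed as Ict1) at -0.11. Among them only Mrpl57 had PI below AI on all arrays (16.7%). Transcription factors of nuclear mitochondrial genes were divided evenly, 6 of 12 negative with a median of 0.00. The coactivator Ppargc1a had 0.22, at a low signal of 2.77 in PI and 2.55 in AI, and its relative Pprc1 had -0.15. Both separated the groups, in opposite directions, and neither passed the test.

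For 69 cytosolic ribosomal protein genes the median difference was -0.04, with 48 negative (69.6%), 16 with PI below AI on all arrays (23.2%) and 4 with PI above AI (5.8%, at the background of 5.85%). Complex I subunit genes had a median of -0.04, with 22 of 31 negative (71%), 4 with PI below AI (12.9%) and 0 above. For all genes of the highest level group 67.3% were negative and the share with PI below AI was 13.6%. These values stand beside -0.08 for the mitochondrial ribosomal protein genes, and the difference between the gene groups was not tested.

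Over all transcript clusters, pairs of arrays correlated at 0.987 to 0.990. Epithelial markers of the tumour cells ranged from percentile 41.8 to 98.6 of all genes by level. Krt8 read 10.70 in PI and 10.81 in AI, and Krt18 10.89 and 11.11. Of the 7 markers 5 had negative differences (71.4%, against 52.7% of all genes), with a median of -0.16 and 0 past the test. Epcam and Krt8 had PI below AI on all arrays (28.6%, against 7.32% of all genes and 27.9% of members). Krt19 (4.32 in PI and 4.27 in AI) and Cldn7 (4.16 and 4.10) had positive differences. The summed log2 level of the 7 markers was 49.40 to 49.88 on the PI arrays and 49.50 to 50.91 on the AI arrays. Of the receptors that the name triple negative states to be absent, Esr1 read 5.39 in PI and 5.18 in AI, and Pgr 3.18 and 3.07. Erbb2 read 7.78 in PI and 7.93 in AI, and the 3 receptors ranged from percentile 18.2 to 80.5 of all genes by level. These are RNA levels, and receptor protein was not measured. Of 12 macrophage markers 0 passed, 8 had positive differences and 4 negative (33.3%, against 52.7% of all genes). In each direction 1 of them separated the groups (8.33%; background 7.32% lower and 5.85% higher). The summed log2 level of the 12 was 53.52 to 54.58 in PI and 52.77 to 54.41 in AI, which overlap. Mpeg1, a macrophage pore-forming protein, read 4.45, 4.54 and 4.83 in PI and 4.30, 3.95 and 3.84 in AI, a difference of 0.58 without overlap, larger than any member's (limma adjusted p = 0.476). Cd14, a co-receptor for lipopolysaccharide, separated the other way, at 8.23 in PI and 8.47 in AI, a difference of -0.23 (limma adjusted p = 0.662). Cd68 read 7.51 in PI and 7.48 in AI. The depletion target Itgam, the lowest of the 12, read 2.98 in PI and 2.97 in AI. By level, the macrophage markers ranged from percentile 14.4 to 85.1 of all genes. The part of the epithelial and macrophage values in the ribosomal protein differences was not tested. In RNA from a whole fraction, fewer tumour cells and less RNA per cell cannot be told apart, and levels are not comparable between probe sets.

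**Figure D5:**
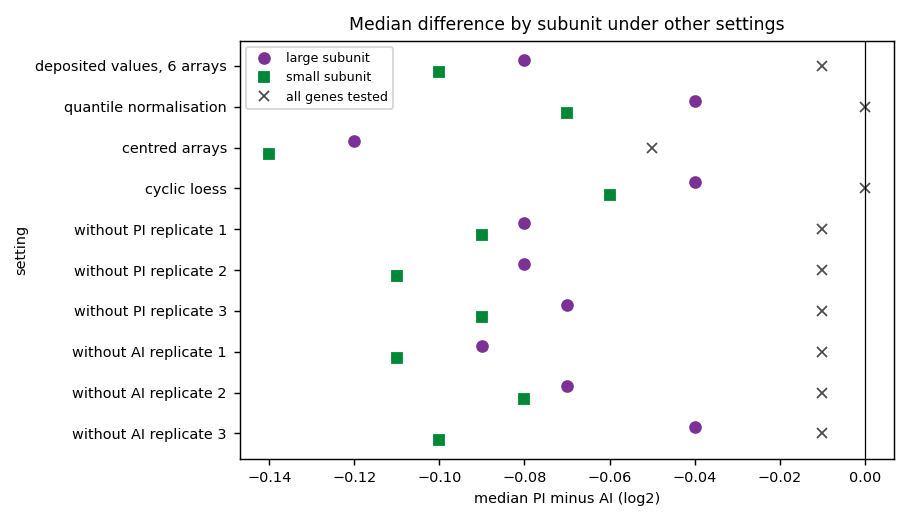
Median PI minus AI difference (x axis, log2) of large subunit genes (circles), small subunit genes (squares) and all genes tested (crosses) with the deposited values, after other scalings of the arrays, and without each array in turn (y axis). Both subunit medians lie below 0 and below the median of all genes in every setting drawn, from -0.12 to -0.04 for the large subunit and from -0.14 to -0.06 for the small subunit.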

How the data were processed

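Per the file headers and the submitters' processing notes, the authors deposited log2 expression values per transcript cluster, made with Affymetrix Expression Console and RMA, for which no versions are given. RMA adjusts for background, normalises the arrays and summarises probes. The genome build of the array annotation is not given in the sources used here. Values ran from 1.33 to 13.89 over 41345 clusters and 6 arrays, and 0 of them differed between the deposited tables. The deposited p-value, q-value and fold are the authors' own comparison, whose test is not stated. The deposited fold was AI over PI for all 41345 clusters within 0.0001, so differences here, PI minus AI, have the opposite direction.

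Groups and replicate numbers came from the array titles. Only the 24724 clusters with 1 gene symbol were used. Symbols were updated through Entrez identifiers with a RefSeq gene table (GRCm38.p6, names only), and the cluster of highest mean represented each gene, giving 23385 genes with no filter on dim genes. Limma 3.58.1 (R 4.3.3; lmFit and eBayes, group as the only term, two-sided) was fitted to all of them, with Benjamini-Hochberg adjustment and a threshold of 0.05, and was tested on simulated data. Figures were drawn in Python 3.11.15 with matplotlib 3.10.9. Lists are described by counts and medians, without a test. Array values were given for the 5 lower and 3 higher members of smallest p in each subunit, those of highest and lowest residual SD, those whose clusters disagreed in sign, and a fixed set of 9 (Mrpl10, Mrpl12, Mrpl45, Mrps12, Mrps18a, Mrps18b, Mrps18c, Mrps30, Mrps36), with 2 genes for each other list. The members and lists were chosen with earlier results of these data known. The comparisons with cytosolic ribosomal proteins and complex I were added after the data were seen. Alternatives covered scaling, cluster choice, dim genes, the variance model, pairing, member definitions and each array left out.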

Additional observations from a re-analysis of the deposited data

How the results depend on the processing

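With 3 arrays per group, differences of the size seen here lie within the 95% interval of most single members, so a count of 0 does not show that levels were equal. The count of members past the threshold was 0 under every alternative run, which at these sizes says little about stability, with smallest adjusted p from 0.224 (intensity trend and robust variance) to 0.724 (without PI replicate 1). The scaling moved the medians without changing their direction, and the cause was not tested. The medians of all, large and small subunit members were -0.05, -0.04 and -0.07 after quantile normalisation, -0.13, -0.12 and -0.14 after centring, and -0.05, -0.04 and -0.06 after cyclic loess. Over all genes, centring moved the negative share from 52.7% to 65.5% and the median from -0.01 to -0.05. Leaving out each array in turn gave medians of -0.11 to -0.06 for all members, -0.09 to -0.04 for the large subunit and -0.11 to -0.08 for the small subunit, with a large minus small gap of 0.01 to 0.06. Members whose groups did not overlap then numbered 20 to 33, the highest (32 lower, 1 higher) without AI replicate 1, and fewer arrays make overlap rarer among all genes too (11.8% to 13.4% lower). With the replicate block, 0 members passed (smallest adjusted p = 0.637). The labels do not say whether a replicate number stands for 1 mouse in both groups. Deviations from the group means correlated at 0.041, 0.006 and 0.057 between arrays of the same number and at -0.075 to 0.038 between others. PI replicate 2 correlated best with another number. With 3 arrays per group these values cannot settle the pairing, and the main fit did not take the numbers as pairs. Of 23 named members under 17 alternatives, the sign changed in 6 cases. They were Mrpl27 without PI replicate 2 (0.07) and without AI replicate 3 (0.18), in a range of -0.14 to 0.18 with each array left out, Mrpl47 with averaged clusters (-0.01) and without PI replicate 2 (-0.03; range -0.03 to 0.26), Mrps14 without AI replicate 2 (-0.04; range -0.04 to 0.12) and Mrps18b after cyclic loess (0.0040).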
